A study of Capitella teleta with 10 samples.

Results

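This report describes 150 genes of the annelid *Capitella teleta* whose main transcript model differed between the 64-cell stage and stage 7. The bulk RNA-seq data comprised 10 libraries, 2 for each of 5 stages, namely the 64-cell embryo, the gastrula, stage 4tt, stage 5 and stage 7. The labels place the first 3 stages among embryos and stages 5 and 7 among larvae, whereas the study's methods count stage 4tt as larval too. All groups shared the same handling in the labels, with zygotes freed from brooding tubes and kept in artificial sea water with antibiotics, and no genotype, strain or treatment separated them. Totals ranged from 32883200 to 55846793 normalized reads per library, highest at the 64-cell stage and lowest at stage 7.

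A transcript model is 1 predicted RNA of a gene in the genome annotation. Several models of a gene can arise from alternative start sites, alternative splicing or alternative ends, and they can encode different proteins or differ only in untranslated sequence. In animal embryos, RNA loaded into the egg by the mother is gradually replaced by RNA from the embryo's own genome. A gene can therefore keep a similar total while the model that carries most of its reads differs between stages. The annotation of these data gives each model the identifier of its gene followed by a number, so that a gene with several numbered models can be followed as a set of shares.

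The members were chosen by measured values. The table held 41221 models of 37631 genes, of which 2767 genes had at least 2 models, and 2002 of these had a summed normalized read count of at least 100 in every library. In 1744 of the 2002 genes, both 64-cell libraries agreed on 1 model with the highest value and both stage 7 libraries agreed on 1 model as well. The model was the same at both stages in 1552 genes, called here the genes that kept their top model, and different in 192. The 150 of these 192 with the largest change in the mean share of the stage 7 top model are the members, and share means a model's percentage of its gene's summed value. The model on top at stage 7 is called the stage 7 top model and the one on top at the 64-cell stage the 64-cell top model. Apart from the sum filter, values of the 64-cell stage and stage 7 made this choice, so they are given as a description without tests.

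The identifiers carry no gene names. None of the 37631 identifiers matched the 31977 genes of the RefSeq table for assembly Capca1, so names and functions of the members are not given here. No transcript sequences were used here. The values are not divided by model length, so a share of reads is not a share of molecules when models differ in length, although a change of the share between libraries does not arise from length alone. Reads that fit more than 1 model were divided among models by the authors' pseudo-alignment. In whole animals, fewer cells of a type and less RNA per cell cannot be told apart.

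The share of the stage 7 top model was higher at stage 7 than at the 64-cell stage by a median of 46.5 percentage points over the 150 members, with a range from 25.4 to 99.8 points. It was higher by at least 50 points in 61 members and by at least 80 points in 6. The median share of this model was 67.2% at stage 7, against 23.0% at the 64-cell stage. The 64-cell top model had a median share of 25.3% at stage 7, against 72.3% at the 64-cell stage. In 17 members the stage 7 top model held at least 90% of the gene at stage 7, and in 21 members the 64-cell top model held at least 90% at the 64-cell stage. The model on top led every other model by at least 10 points in all 4 libraries in 111 members. The smallest lead in any member and library was 0.0803 points.

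The rule had thresholds, and values on both sides were close. CTELG00000005566, the last member by change in share, differed by 25.4 points, and CTELG00000025956, the first gene outside, by 25.2 points. CTELG00000018921 was the member with the lowest single-library sum, 105 normalized reads. CTELG00000007308 met the rest of the rule with a change of 91.8 points, but its lowest sum was 99.1 and it stayed outside. The 42 genes past the limit of 150 differed by 1.95 to 25.2 points, with a median of 16.0 points.

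**Figure D1:**
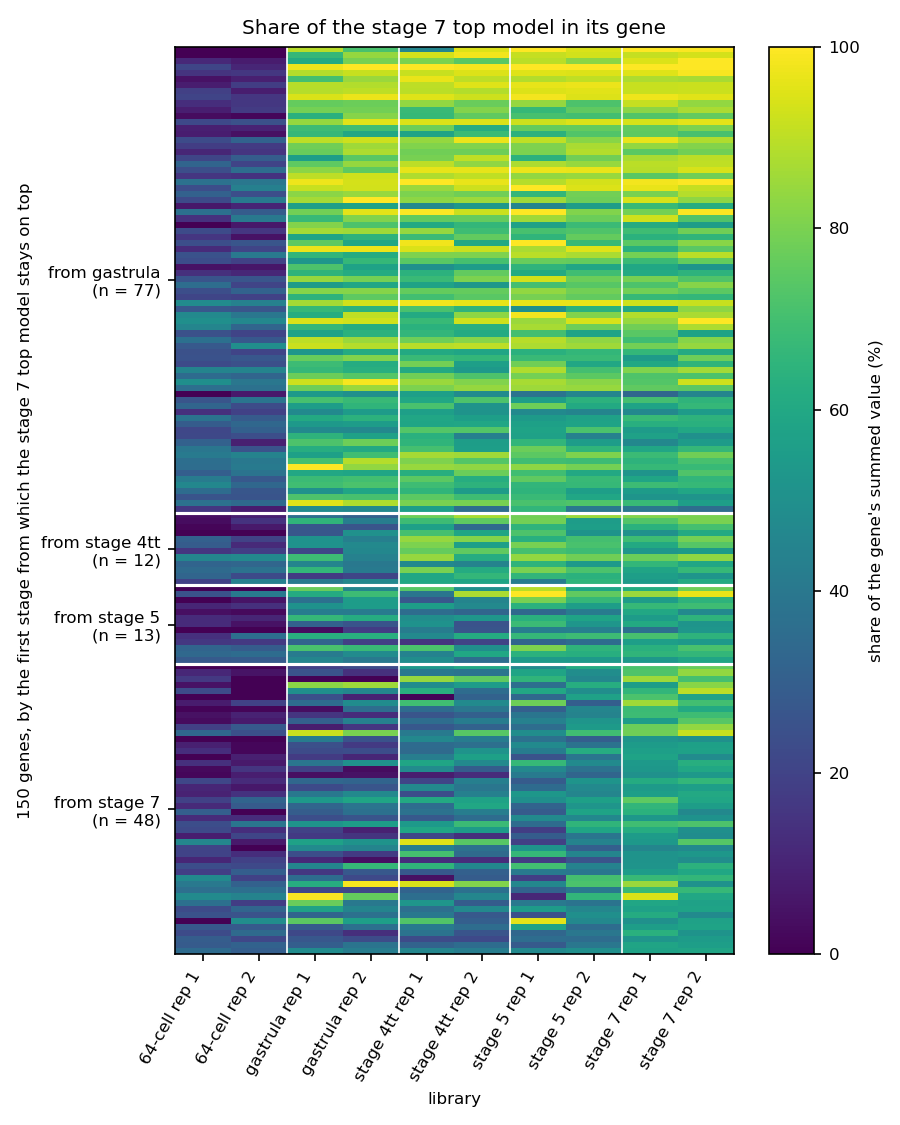
Share of the stage 7 top model in its gene (colour, 0 to 100%) in each of the 10 libraries (columns) for the 150 members (rows), grouped by the first stage from which that model stayed on top in both libraries. The upper block of 77 genes is already light at the gastrula, and in the lower block of 48 genes that model is on top in both libraries through to the end only at stage 7, although some of these rows are light at an earlier stage too, such as CTELG00000008055 at stage 4tt.

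Most of the change in share was already present at the gastrula. Apart from the sum filter, the gastrula, stage 4tt and stage 5 libraries took no part in the choice of members. Over the 5 stages in order, the median mean share of the stage 7 top model was 23.0%, 60.7%, 62.9%, 64.7% and 67.2%. The median share of the 64-cell top model was 72.3%, 35.1%, 29.4%, 27.4% and 25.3%. In 132 members, both gastrula shares of the stage 7 top model lay above both 64-cell shares, and in 4 members both lay below. The 64-cell shares helped to choose the members and are low through that choice. This count is therefore only a description, without a share over other genes beside it. Of the difference between the 64-cell stage and stage 7, the gastrula had reached a median of 81.1%, with quartiles of 44.4% and 101%. The end values behind this percentage are those that chose the members. The median was 92.3% at stage 4tt and 94.4% at stage 5. At least 50% of the difference had been reached in 108 members at the gastrula, 125 at stage 4tt and 135 at stage 5.

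The approach to the stage 7 value was not uniform. The gastrula share was past the stage 7 mean in 39 members, and it was on the other side of the 64-cell mean in 11. At stage 5 these counts were 60 and 2. Both gastrula shares lay below both stage 7 shares in 82 members and above both in 18. Both stage 5 shares lay below both stage 7 shares in 49 members and above both in 23. The stage 7 shares helped to choose the members and are high through that choice. The counts of this paragraph are therefore only a description, without a share over other genes beside them.

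**Figure D2:**
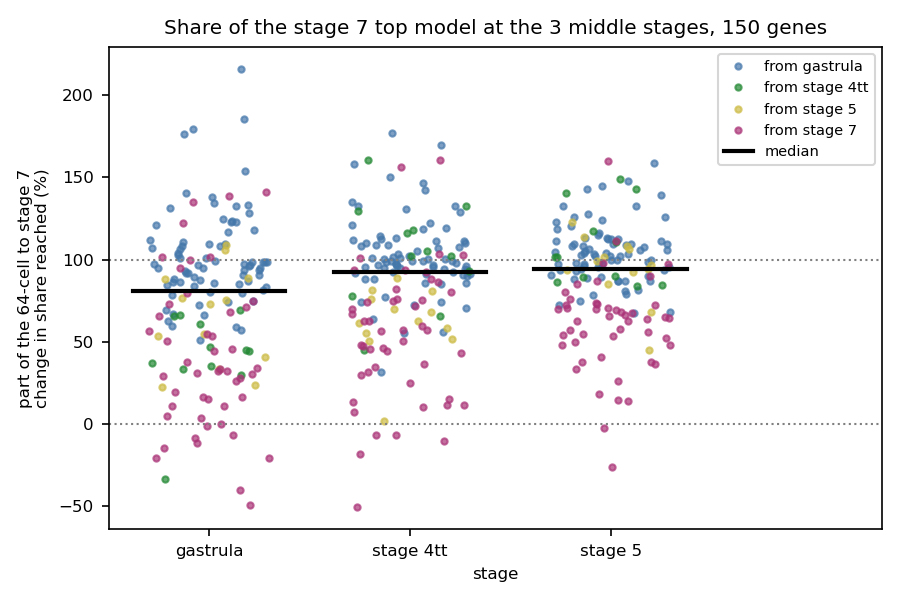
Part of the difference in share between the 64-cell stage (0%) and stage 7 (100%) that each member had reached at the gastrula, stage 4tt and stage 5. Points are the 150 members, coloured by the first stage from which the stage 7 top model stayed on top, and black bars are the medians of 81.1%, 92.3% and 94.4%.

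The stage 7 top model was on top in both libraries in 92 members at the gastrula, 98 at stage 4tt and 102 at stage 5. The 64-cell top model was still on top in both libraries in 36, 24 and 13 members at these stages. A different model of the gene led in both libraries in 2, 4 and 2 members. In the remaining 20, 24 and 33 members, the 2 libraries of the stage had different models on top. These disagreements were 13.3%, 16% and 22% of the members, against 7.09%, 9.84% and 11.4% of the 2002 genes with a sum of at least 100.

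Members were then classed by the first stage from which the stage 7 top model was on top in both libraries of that stage and of every later one. This was the gastrula in 77 members (51.3%), stage 4tt in 12, stage 5 in 13 and stage 7 in 48. In the 77 members of the gastrula class, the median share of the stage 7 top model was 26.1%, 75.5%, 75.2%, 77.8% and 75.3% over the 5 stages. In the 48 members of the stage 7 class it was 15.8%, 32.8%, 40.5%, 44.0% and 58.1%, so the median was higher at every later stage. The classes were defined from these same shares, so the medians describe the classes and are not a separate result. When the top model was read from the mean of both libraries, 97 members fell in the gastrula class and 26 in the stage 7 class.

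Among all genes that met the sum filter, the first step also had the most differences. Of 1745 genes with 1 agreed top model at both stages, 184 (10.5%) had different top models at the gastrula and the 64-cell stage. The count was 42 of 1719 (2.44%) for stage 4tt and the gastrula, 22 of 1671 (1.32%) for stage 5 and stage 4tt, and 45 of 1687 (2.67%) for stage 7 and stage 5. Stage 7 and the gastrula differed in 108 of 1755 genes (6.15%).

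The 2 members of the gastrula class with the largest changes differed in the fate of their 64-cell top model. CTELG00000007793 had shares of its stage 7 top model, CTELG00000007793.2, of 0% and 0% at the 64-cell stage, 89.2% and 71.1% at the gastrula, 45.8% and 94.6% at stage 4tt, 100% and 94.3% at stage 5, and 100% and 99.6% at stage 7. Stage 4tt replicate 1 was the only library after the 64-cell stage in which this share was under 70%. Its 64-cell top model had 0 and 0 normalized reads at stage 7, against 2256 and 1864 at the 64-cell stage. The stage 7 top model had 338 and 476 normalized reads at stage 7, against 0 and 0 at the 64-cell stage. The gene's sum was 338 and 478 normalized reads at stage 7, against 2494 and 2156 at the 64-cell stage, so its summed level was lower at stage 7 while its stage 7 top model held nearly all of it.

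CTELG00000009384 followed another course. Its stage 7 top model was at 0% in both 64-cell libraries, 66.8% and 84.3% at the gastrula, 93.7% and 97.9% at stage 4tt, 91.1% and 93.2% at stage 5, and 91.0% and 93.6% at stage 7. That model had 751 and 779 normalized reads at stage 7 and was listed at 0 in both 64-cell libraries. The 64-cell top model had 74.0 and 53.5 normalized reads at stage 7, against 145 and 107 at the 64-cell stage, with the highest values, 330.3 and 184, at the gastrula. This gene thus had a sum of 825 and 832 normalized reads at stage 7, against 145 and 107 at the 64-cell stage, and its older model held 8.97% and 6.42% of it at stage 7.

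The stage 4tt class held 12 members. CTELG00000018354, with 4 models, had shares of its stage 7 top model of 3.94% and 8.87% at the 64-cell stage, 36.6% and 31.2% at the gastrula, 77.8% and 86.9% at stage 4tt, 78.4% and 85.2% at stage 5, and 81.6% and 79.8% at stage 7. The step between the gastrula and stage 4tt was larger than the difference between libraries of either stage. Its summed value was lowest at the gastrula, with 461 and 302 normalized reads, and reached 2070.4 and 1758 at stage 5. CTELG00000009983 had shares of 3.28% and 14.7%, 65.3% and 42.3%, 68.6% and 75.1%, 78.9% and 55.3%, and 72.8% and 79.9% in the same order of stages. Only gastrula replicate 2 kept it out of the gastrula class. Its stage 7 top model had 238 and 203 normalized reads at stage 7, against 70.0 and 367 at the 64-cell stage, so the groups overlapped. Its 64-cell top model had 88.9 and 51.2 at stage 7, against 2065 and 2127 at the 64-cell stage.

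In both named members of the stage 5 class, which held 13 members, the libraries of a middle stage differed widely. CTELG00000009118 had shares of 0% and 0% at the 64-cell stage, 77.2% and 45.9% at the gastrula, 73.8% and 49.8% at stage 4tt, 89.4% and 58.7% at stage 5, and 61.5% and 77.7% at stage 7. Replicate 1 was the higher library at each middle stage. The sum of this gene was low after the 64-cell stage, between 112 and 208 normalized reads. CTELG00000005613 had shares of 25.5% and 41.3%, 61.6% and 68.4%, 38.7% and 87.3%, 100% and 75.4%, and 84.8% and 96.8% over the 5 stages. Stage 4tt replicate 1 alone placed it in this class.

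The stage 7 class included a gene with a gradual change. CTELG00000012429 had shares of its stage 7 top model of 11.2% and 5.39% at the 64-cell stage, 25.6% and 14.0% at the gastrula, 39.9% and 38.4% at stage 4tt, 58.4% and 48.9% at stage 5, and 72.3% and 83.9% at stage 7. Libraries of neighbouring stages did not overlap at any step. Its 64-cell top model had 846 and 452 normalized reads at stage 7, against 918 and 809 at the 64-cell stage, after 2786 and 2666 at the gastrula. CTELG00000006130 had shares of 0% and 0%, 19.1% and 22.5%, 53.3% and 59.4%, 47.7% and 60.9%, and 71.7% and 76.7%. Its stage 7 top model already led in both libraries of stage 4tt, and stage 5 replicate 1 alone kept this gene out of the stage 4tt class. Both of its models were higher at stage 7, where the stage 7 top model had 5049 and 4732 normalized reads, against 0 and 0 at the 64-cell stage. Its 64-cell top model had 1990.2 and 1434 at stage 7, against 139 and 225 at the 64-cell stage.

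**Figure D3:**
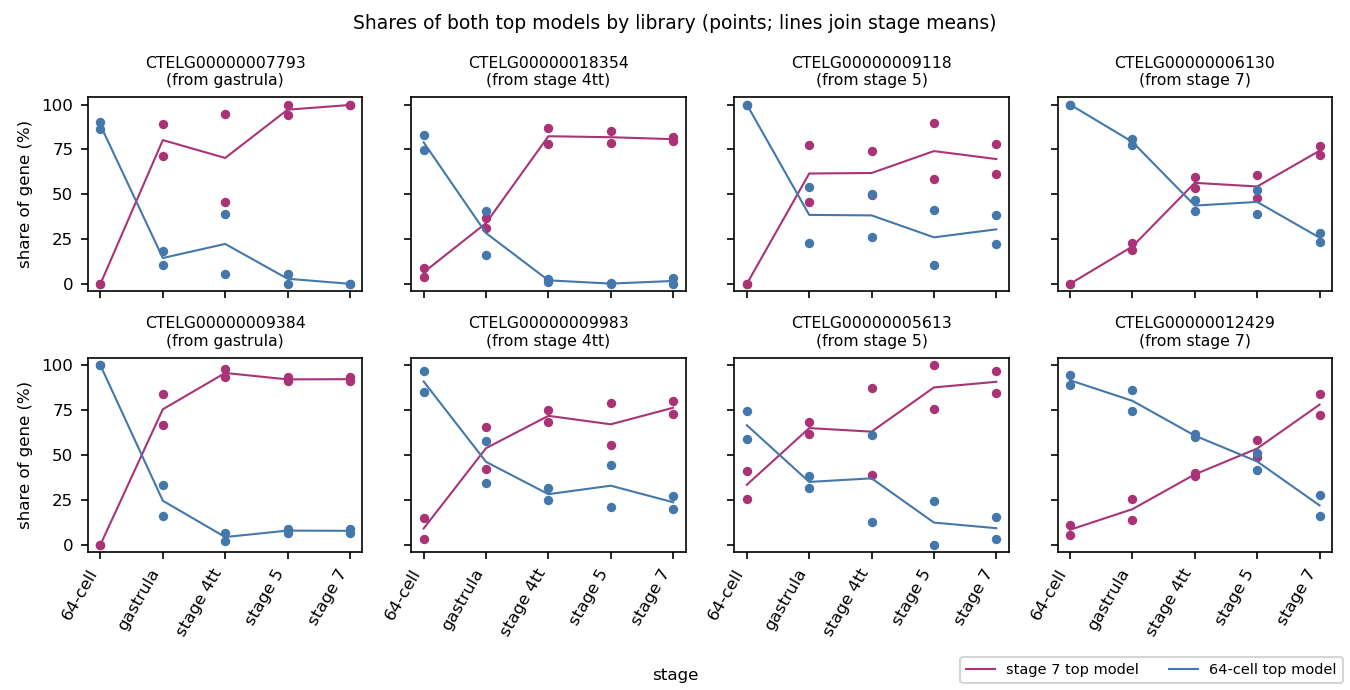
Share of the gene's summed value (y axis, %) held by the stage 7 top model (purple) and the 64-cell top model (blue) at the 5 stages (x axis) for the 2 members with the largest change in each class. Points are single libraries and lines join stage means, and the lines cross between the 64-cell stage and the gastrula in the left column and between stages 4tt and 5 for CTELG00000012429.

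The 2 members with the highest mean sum over the 10 libraries belonged to the gastrula class, and the mean sums of all members ran from 242 to 9936 normalized reads with a median of 1487. CTELG00000019882, with 3 models, had shares of its stage 7 top model of 37.6% and 34.7%, 95.1% and 88.0%, 79.8% and 79.6%, 71.1% and 72.6%, and 67.5% and 56.1% over the 5 stages. The share was therefore highest at the gastrula and lower at each later stage, with libraries of the gastrula, stage 4tt and stage 5 not overlapping. Its 64-cell top model had 2033 and 2699 normalized reads at stage 7, against 3717 and 3574 at the 64-cell stage. CTELG00000002609 had shares of 36.5% and 37.5%, 77.8% and 85.1%, 80.3% and 84.1%, 85.2% and 84.7%, and 75.7% and 74.4%. Its stage 7 top model had 5278 and 4622 normalized reads at stage 7, against 4452 and 5019 at the 64-cell stage, and these groups overlapped. The change in share of this gene lay in its 64-cell top model, with 1691 and 1593 normalized reads at stage 7, against 7742 and 8376 at the 64-cell stage.

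The members at the thresholds were less marked. CTELG00000005566 had shares of 35.1% and 29.9%, 48.7% and 42.3%, 46.0% and 42.5%, 47.4% and 49.6%, and 57.6% and 58.4% over the 5 stages. Its sum was 1477 and 1674 normalized reads at stage 7, against 6491 and 6413 at the 64-cell stage. CTELG00000018921 had shares of 45.4% and 47.1%, 68.7% and 44.0%, 84.1% and 61.7%, 83.9% and 78.3%, and 77.7% and 83.2%. At the 64-cell stage its 2 models had 67.9 and 49.3 and 81.8 and 55.4 normalized reads, the stage 7 top model first.

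In 4 members a model other than these led in both libraries of a middle stage, namely CTELG00000011216, CTELG00000013711, CTELG00000016831 and CTELG00000020470, the first 2 chosen for description after their values were seen. In CTELG00000020470 the remaining model, CTELG00000020470.3, had 0 and 0 normalized reads at the 64-cell stage, 3583 and 3264 at the gastrula, 1635 and 2072 at stage 4tt, 1964 and 1810.0 at stage 5, and 979.8 and 1557 at stage 7. This model held 73.2% and 70.5% of the gene at the gastrula and 36.5% and 41.2% at stage 7. In this gene the 64-cell top model was listed at 0 in replicate 1 of stages 4tt, 5 and 7, while replicate 2 had 159, 72.9 and 286 normalized reads. In CTELG00000016831, with 5 models, model 3 held 61.1% and 70.8% at the 64-cell stage and at most 9.36% in any later library. Model 5 led at stage 4tt with 37.8% and 39.0%, against 35.6% and 32.5% for model 2, the stage 7 top model, which then held 59.8% and 47.1% at stage 7.

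CTELG00000013711 had a remaining model, CTELG00000013711.1, with shares of 16.7% and 16.2%, 80.8% and 84.3%, 68.8% and 71.3%, 67.8% and 62.4%, and 43.4% and 48.3% over the 5 stages. Its stage 7 top model led by a small margin, with 51.2% and 49.0% at stage 7. In CTELG00000011216 the model CTELG00000011216.1 led in both libraries of stage 4tt only, with 36.6% and 45.6%, against 35.1% and 39.8% for the stage 7 top model.

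A return was seen in 2 members, CTELG00000000164 and CTELG00000022222, in which the stage 7 top model led in both libraries of a stage and the 64-cell top model in both libraries of a later one. They are described after their values were seen. CTELG00000000164 had shares of its stage 7 top model of 46.1% and 7.02%, 57.3% and 51.5%, 95.2% and 73.9%, 18.8% and 44.6%, and 53.4% and 73.8% over the 5 stages. Its sums were between 147 and 481 normalized reads. CTELG00000022222 had shares of 47.9% and 44.9%, 98.9% and 76.4%, 36.1% and 45.7%, 11.1% and 65.7%, and 94.2% and 59.7%. The 2 libraries of stage 5 differed by 54.5 points in this gene. In all, 19 members had the stage 7 top model on top in both libraries of a stage but not in both libraries of some later one.

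The change in share arose in different ways. A model was counted as higher or lower when its log2(mean value + 1) differed by at least 1 (2-fold) between stage 7 and the 64-cell stage. The mean value is that of the 2 libraries of a stage. By this count, 52 members had a lower 64-cell top model and a higher stage 7 top model. In 41 the 64-cell top model was lower and the stage 7 top model stayed within 2-fold, as in CTELG00000009983 and CTELG00000002609. In 33 the 64-cell top model stayed within 2-fold and the stage 7 top model was higher, as in CTELG00000009384 and CTELG00000012429. Both were higher in 12 members, such as CTELG00000006130, and both were lower in 12, such as CTELG00000005566. The stage 7 top model was listed at 0 in both 64-cell libraries in 8 members, and these models had mean values of 123 to 4890 normalized reads at stage 7. The 64-cell top model was listed at 0 in both stage 7 libraries in 5 members, CTELG00000007793, CTELG00000004233, CTELG00000000216, CTELG00000016163 and CTELG00000004357, after mean values of 386 to 5908 at the 64-cell stage. Without counts, no fold change is given for these.

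**Figure D4:**
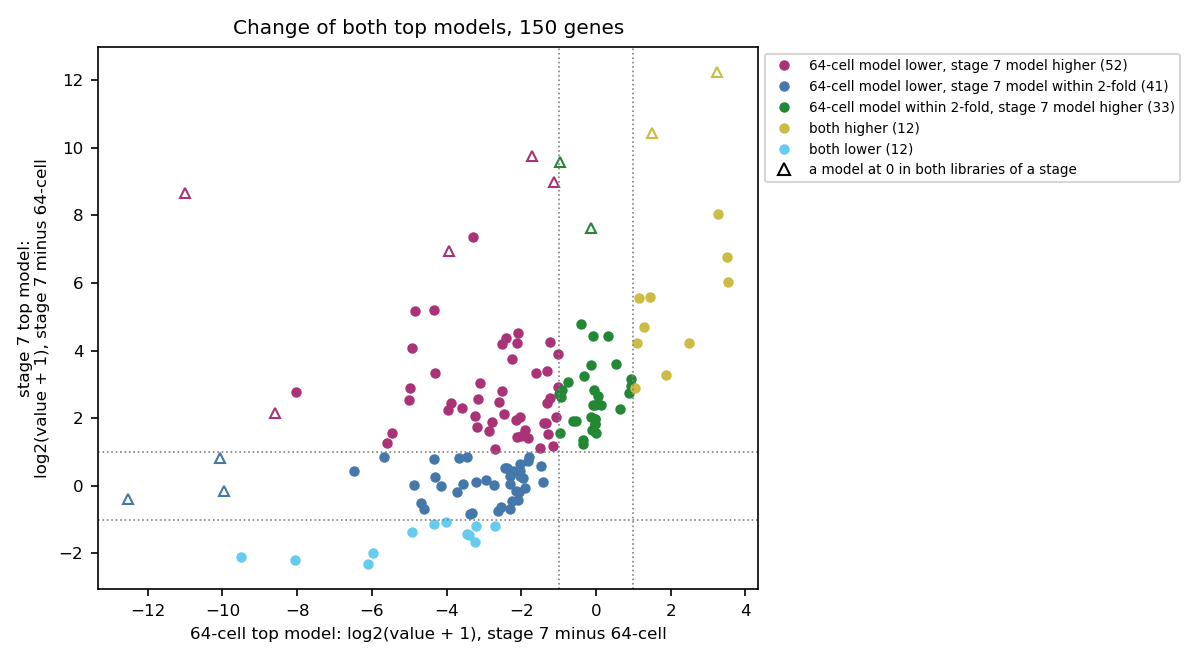
Difference in log2(mean value + 1), stage 7 minus 64-cell, of the 64-cell top model (x axis) and the stage 7 top model (y axis) for the 150 members, coloured by the 5 combinations and with their numbers. Triangles mark genes with a model listed at 0 in both libraries of a stage, whose position depends on the added 1, and dotted lines mark 2-fold.

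Summed values were described in the same way. The sum was at least 2-fold lower at stage 7 than at the 64-cell stage in 49 members (32.7%), at least 2-fold higher in 37 (24.7%) and within 2-fold in 64. Among the 1552 genes that kept their top model, 28.0% were at least 2-fold lower and 22.0% at least 2-fold higher. The median log2 difference of the sum was -1.39 in the members with a lower 64-cell top model and a stage 7 top model within 2-fold. The median was 1.13 where only the stage 7 top model was higher and 0.19 where the models moved in opposite directions.

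Members had more models than the other genes. A total of 89 members (59.3%) had 2 models, 35 had 3, 18 had 4 and 8 had 5, whereas 1226 (79.0%) of the genes that kept their top model had 2. Members were 5.95% of the 1497 filtered genes with 2 models, 9.97% of the 351 with 3, 16.7% of the 108 with 4 and 17.4% of the 46 with 5. A gene with more models offers more pairs that can meet the rule. In the 61 members with over 2 models, all models other than both top models together held a median of 9.62% to 13.9% of the gene at the 5 stages. The model numbers of both top models were similar. The stage 7 top model was number 1 in 63 members and number 2 in 58. The 64-cell top model was number 1 in 62 and number 2 in 67. Among genes that kept their top model, that model was number 1 in 870 (56.1%), and a larger share of those genes had only 2 models.

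Members also varied more between libraries of a stage. The median difference in the share of the stage 7 top model between the 2 libraries was 6.13, 6.25, 6.57, 8.26 and 5.81 points over the 5 stages. For the top model of the genes that kept it, the median was 3.19, 2.69, 3.62, 3.80 and 3.02 points, from a median share between 86.6% and 89.0%. A model listed at 0 in 1 library beside reads in the other was about as frequent in members as elsewhere. Among pairs of a model and a stage with a mean of at least 25 normalized reads, this was so in 23 of 1451 pairs (1.59%) for both top models of members, against 296 of 19079 (1.55%) for all other models of the 2002 genes. The 23 pairs came from 18 members.

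The choice was also read across replicate numbers, a check added after the data had been seen. Applied to replicate 1 of the 64-cell stage and stage 7 alone, the rule without its limit gave 308 genes, and 192 of these (62.3%) had the same pair of top models in replicate 2. By definition they are the genes that met the rule in both replicates. The share of the stage 7 top model was higher at stage 7 in replicate 2 in 264 of the 308 (85.7%), and its median change was 28.7 points in replicate 2, against 34.6 points in the replicate that chose. Applied to replicate 2, the rule gave 353 genes, of which 192 (54.4%) had the same pair in replicate 1. The share was higher at stage 7 in replicate 1 in 310 of the 353 (87.8%), with a median change of 24.5 points, against 34.4 points in replicate 2. Both sets include the 192 genes, whose top models differ in both replicates by definition, so a rise there is largely built in. The rates of 85.7% and 87.8% are high partly through these genes. A rate of rise was not taken over other genes, so 85.7% and 87.8% have no background beside them. The study calls its duplicates biological replicates, but the labels do not say that libraries of 1 stage came from separate broods. The spread between them may therefore be technical in part.

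Tests were run only on the 6 libraries of the gastrula, stage 4tt and stage 5. The measure was the log2 ratio of a model's share to the rest of its gene, with 0.01 added to both, fitted with limma over all 4316 models of filtered genes that passed the share filter. A call required a change above 1 in size and a Benjamini-Hochberg adjusted p under 0.05. All 150 stage 7 top models of the members were tested. Between stage 5 and the gastrula the ratio rose in 1 member and fell in 0, where 0.0695% of all models were called higher and 0.0695% lower, and 0.0692% higher and 0% lower among top models of genes that kept them. By unadjusted p below 0.05, 39 members had a higher ratio and 7 a lower one. Unadjusted counts, here and below, were not taken over all models, so how common they are elsewhere is not known. Between stage 4tt and the gastrula 1 member rose and 0 fell, with 28 higher and 7 lower by unadjusted p below 0.05, where 0.0463% of all models were called higher and 0.0232% lower. Between stage 5 and stage 4tt limma called 0 members in either direction, with 11 higher and 4 lower by unadjusted p below 0.05, and 0% of all models in either direction.

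The called member was the same in both comparisons. CTELG00000008055 had shares of its stage 7 top model of 16.6% and 0% at the 64-cell stage, 0.556% and 0% at the gastrula, 84.1% and 75.6% at stage 4tt, 65.4% and 46.4% at stage 5, and 85.2% and 70.3% at stage 7. This model had 1593 and 1053 normalized reads at stage 5 and 1342 and 1400.0 at stage 4tt, against 0.644 and 0 at the gastrula. No library of the gastrula overlapped those of the later stages. The gene's sum was also lowest at the gastrula, with 2438 and 2269.8 normalized reads at stage 5, against 116 and 162 at the gastrula. The log2 ratio was 8.30 higher at stage 4tt than at the gastrula (SE 0.61, limma adjusted p = 0.0149) and 6.68 higher at stage 5 than at the gastrula (SE 0.61, limma adjusted p = 0.0461), and both values depend on the 0.01 added to shares near 0. Over the alternatives, the smallest and largest limma adjusted p for stage 5 against the gastrula were 0.022 and 0.253. The call was lost without any of the 6 libraries, at 0.101 without gastrula replicate 1, 0.112 without gastrula replicate 2, 0.1141 without stage 4tt replicate 1, 0.1142 without stage 4tt replicate 2, 0.253 without stage 5 replicate 1 and 0.143 without stage 5 replicate 2, while the ratio stayed 6.13 to 7.23 higher.

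Across all members the direction was uneven although nearly none was called. The ratio of the stage 7 top model was above 0 in 107 members and below 0 in 43 for stage 5 against the gastrula, with a median log2 change of 0.56. The median was 0.00 over the 1445 tested top models of genes that kept them. The size of the change, without its sign, had a median of 0.91 in members, 0.53 in those genes and 0.57 in all models tested, and the median standard error in members was 0.51. For stage 4tt against the gastrula the ratio was above 0 in 85 members and below 0 in 65, with a median of 0.13. The median was 0.09 over the top models of genes that kept them, so members differed little from these. For stage 5 against stage 4tt it was above 0 in 93 members and below 0 in 57, with a median of 0.18, against -0.03 in those genes. These comparisons share libraries, so their values stand side by side only. Without a test, both stage 5 shares lay above both gastrula shares in 65 members (43.3%) and below both in 26 (17.3%). This count was also added after the data had been seen. Over all 4559 models of the filtered genes with a value above 0 in these libraries, 22.7% lay above and 22.5% below, and over the top models of genes that kept them, 22.2% lay above and 20.7% below. A model's share is higher only where the rest of its gene is lower, so the balance over all models is largely built in.

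**Figure D5:**
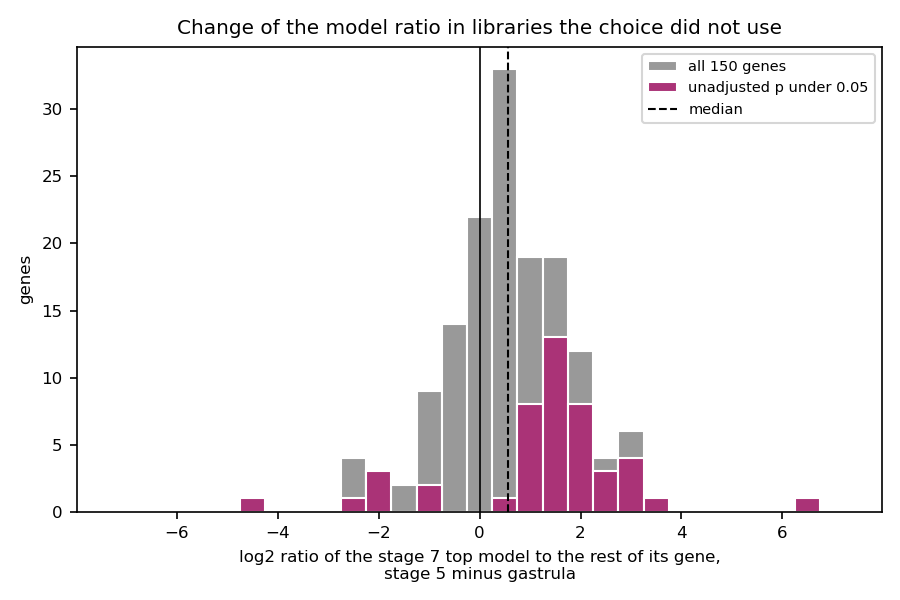
Number of members (y axis) by the change in the log2 ratio of the stage 7 top model to the rest of its gene between stage 5 and the gastrula (x axis, positive when higher at stage 5). Grey bars are all 150 members, purple bars those with p below 0.05 before adjustment (39 higher, 7 lower), and the dashed line is the median of 0.56. Unadjusted counts were not taken over all models.

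Ratios of the other named members were not called. CTELG00000018354 was 3.08 higher at stage 5 than at the gastrula (SE 0.48, limma adjusted p = 0.0707), CTELG00000006130 2.13 higher (SE 0.40, limma adjusted p = 0.0842) and CTELG00000012429 2.23 higher (SE 0.42, limma adjusted p = 0.0842). CTELG00000019882, whose share was highest at the gastrula, had a change of -2.07 (SE 0.43, limma adjusted p = 0.107).

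The summed values of members moved between stage 5 and the gastrula about as often as those of other genes. By limma on log2(sum + 1), the sum rose in 22 of 150 members (14.7%) and fell in 19 (12.7%), where 15.7% of all 29678 genes tested were called higher and 10.9% lower. Among genes that kept their top model 9.47% rose and 16.6% fell. Like the members, these genes had to have a sum of at least 100 in every library, unlike all genes tested. The median log2 change was -0.10 in members, -0.29 in genes that kept their top model and 0.02 in all genes tested. The sum of CTELG00000008055 was 4.09 higher on the log2 scale (SE 0.22, limma adjusted p = 3.31e-05) and that of CTELG00000018354 2.35 higher (SE 0.23). The sum of CTELG00000005613 was lower at stage 5 by a log2 change of -1.70 (SE 0.25, limma adjusted p = 0.00194).

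For the models taken singly, 14.5% of all 32859 models tested were called higher and 10.3% lower at stage 5 than at the gastrula, as were 9.66% and 17.2% of the top models of genes that kept them. The stage 7 top model rose in 26 of 150 members (17.3%) and fell in 16 (10.7%). The 64-cell top model rose in 16 of 149 tested members (10.7%) and fell in 24 (16.1%). The median log2 change was 0.10 for the stage 7 top model and -0.48 for the 64-cell top model, and the second value was the same when models at 0 in both libraries of a stage were set to 3 normalized reads. Both models of a gene rose in 10 members and both fell in 7. In 12 members only the stage 7 top model rose, and in 8 it alone fell, with 1 more in which it fell and the 64-cell top model was not tested. In 13 members only the 64-cell top model fell, and in 6 it alone rose. The stage 7 top model rose while the 64-cell top model fell in 4 members, and no member had the opposite pair. In 89 members neither was called. Pairs of calls were not counted in other genes, so these joint counts have no share beside them.

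These counts depended on single libraries. The stage 7 top model was called higher in 17 members without stage 5 replicate 2, and called lower in 10 without gastrula replicate 1, 8 without gastrula replicate 2 and 10 without stage 5 replicate 1. For the 64-cell top model the calls were higher in 7 members without stage 5 replicate 1 and 10 without stage 5 replicate 2. It was called lower in 12 without gastrula replicate 1, 13 without gastrula replicate 2 and 14 without stage 5 replicate 1.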

How the data were processed

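Duplicate samples of each stage were sequenced as strand-specific mRNA libraries. The growth text of the labels names *Owenia fusiformis*, another annelid, and the samples were taken as the labelled *C. teleta*. Per the submitters' notes, the tools were kallisto 0.46.2, which the authors used to pseudo-align reads to the models of a re-annotated genome, and DESeq2 1.30.1, which they used for scaling. Each deposited value is a signal, namely 1 model's read count after that scaling, without raw counts or lengths. All 10 columns were matched to samples by name.

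Shares and sums were computed with pandas 2.3.3. Tests used R 4.3.3 and its package limma 3.58.1 with a mean-variance trend and 1 coefficient per stage. They ran on 6 libraries that took part in the choice of members only through the sum filter. Models were kept for the ratio at a share of 0.01 to 0.99 in at least 2 libraries. Sums and models were kept above 2 in at least 2 libraries and transformed as log2(value + 1). Adjustment for multiple tests (Benjamini-Hochberg) ran over each whole table. Scripts were tested on simulated data.

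Named genes were the 2 with the largest change per class, the 2 highest sums overall and among genes with another model on top between, the smallest adjusted p per direction, and genes at the thresholds. The members, lists and rules were chosen with earlier results of these data known.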

Additional observations from a re-analysis of the deposited data

How the results depend on the processing

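Under alternatives that kept all libraries, 80 of 98 counts stayed within 1.5 times their main value, and with 1 library left out 53 of 72 did. The only named gene with a called ratio for stage 5 against the gastrula, CTELG00000008055, lost its call in 9 of 13 refits, and the other 14 named genes gained a call in 6 of 182 refits. The ratio of stage 4tt against the gastrula was called higher in 1 member, in 0 with an offset of 0.001, with no filter on the share or with only the 2 stages fitted, in 2 with all 10 libraries, and in 0 to 1 with 1 library left out. For stage 5 against the gastrula the count of 1 became 2 with an offset of 0.001, 0 with an offset of 0.05, with no filter on the share or with only the 2 stages, and 6 with all 10 libraries, where 1 was called lower and 1.82% of all models were called against 0.139% in the fit reported, and it was 0 with any library left out. Replicates shared only a number, with correlations of 0.11, 0.12 and 0.32 between same-numbered libraries of these stages in the ratio, and with the replicate number as a block 6 members were called higher for stage 5 against the gastrula, among them CTELG00000018354, CTELG00000006130 and CTELG00000012429, where 1.34% of all models were called. Without the filter on low values, the stage 7 top model was called higher in 13 members and lower in 7, and the 64-cell top model higher in 10 and lower in 11. With 1 library left out these counts ran from 17 to 27, 8 to 15, 7 to 17 and 12 to 30. The rule gave 192 genes, 324 when the top model was read from mean shares, 117 with a lead of at least 10 points (111 of them members), 213 with a sum of at least 50 and 166 with at least 200. The stage 7 class held 48 members, and 26 by mean shares. The cause of these differences was not tested. With 2 libraries per stage and no raw counts, the precision of a share in 1 library is unknown, and models that share most of their sequence cannot be told from a division of reads between them.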

Other observations

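Genes just outside the members had large values of their own. CTELG00000007308 had a change in share of 91.8 points, which only 2 members exceeded, CTELG00000007793 with 99.8 points and CTELG00000009384 with 92.3 points, and it stayed outside through a single-library sum of 99.1 normalized reads. The other members with a change of at least 80 points were CTELG00000011063 with 87.9, CTELG00000004233 with 84.2, CTELG00000018034 with 81.4 and CTELG00000007936 with 80.5 points. The model listed at 0 in both 64-cell libraries that reached the highest mean at stage 7 among members, 4890 normalized reads, was that of CTELG00000006130.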
